A study of Mus musculus with 12 samples.

Results

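The results below describe genes whose response to Sirt3 knockout differed between a male and a female pair of mouse fibroblast lines. A gene belongs to them when the knockout change in the male pair minus the knockout change in the female pair passed a test of that difference, called the interaction, over all 12 libraries. Of 34866 genes listed, 12504 had a mean of at least 1 TPM, a unit in which each library sums to 1000000, and were tested, and 1629 passed. The account centres on genes that moved in opposite directions in the pairs or in 1 pair alone.

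The cells were mouse embryonic fibroblasts made into stable lines with an SV40 plasmid, named in the series text by its promoter and in the methods by its T antigen, which immortalizes cells. They came from embryos 13 days old of 129S1/SvImJ wild-type mice, Sirt3+/+, or of a Sirt3-/- stock, and the series text names female mice as their source. RNA was taken with an RNeasy kit 48 h after seeding cells of passage 6, then enriched for polyadenylated RNA and sequenced in triplicate. The male pair is made of wild-type (WT) and knockout (KO) male libraries, and the female pair likewise. The series was made to ask how the knockout acts in each sex. How many lines or embryos stand behind a group is not stated, so an effect of genotype or sex cannot be separated from a property of a line, and every statement on sex here concerns the male and the female line pair. The 3 libraries of a group may be cultures of 1 line, so a p-value measures spread between cultures, which may be technical. TPM values carry no read totals, so the depth of the libraries cannot be read from the files. Between 12256 and 12637 genes reached 1 TPM in a library, and genes of the mitochondrial genome held 3.14% to 3.82% of all TPM.

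Sirt3 is a deacetylase of the mitochondrial matrix that acts on enzymes of fuel oxidation and antioxidant defence. Fibroblasts keep programmes of the body region they came from, written in Hox and other transcription factors, and build the collagen-rich matrix around them. They also carry stress programmes, among them the integrated stress response, in which the factor Atf4 turns on genes of amino acid synthesis, uptake and tRNA charging, and the interferon response, in which Stat and Irf factors turn on antiviral genes.

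The labels were checked against marker genes. Sirt3 itself stood at 6.59, 7.17 and 9.07 TPM (male WT), 8.88, 10.9 and 11.0001 (male KO), 7.399, 7.60 and 8.69 (female WT) and 7.57, 9.06 and 8.19 (female KO). No group stood below the others, and KO and WT values overlap in each pair. Its change was 0.39 on the log2 scale in the male pair (adjusted p = 0.0403) and 0.06 in the female pair (adjusted p = 0.815), with an interaction of 0.33 (adjusted p = 0.284). The male value passed under 11 of 20 alternative settings, with adjusted p up to 0.137. Sirt3 mRNA was thus not lower in the libraries labelled KO, the files hold no protein measurement, and the directions given here rest on the labels. Genes of the Y chromosome followed the labelled sex. Ddx3y, an RNA helicase, averaged 34.7 and 33.5 TPM in the WT and KO libraries of the male pair against 0.121 and 0.119 in those of the female pair, and Eif2s3y, a translation factor subunit, was listed at 0 in all 6 female libraries and at 40.3 TPM or more in the male ones. Kdm5d, a histone demethylase, lay between 9.01 and 11.1 TPM in male and between 0.232 and 0.682 TPM in female libraries. Uty, a histone demethylase paralogous to the X-linked Kdm6a, with which it may share reads, stood at 9.83 to 13.2 TPM in male and 2.38 to 6.05 TPM in female libraries. Xist was not analysed here. The cells carried the fibroblast markers Col1a1, Col1a2, Vim and Thy1 in all 12 libraries.

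The test was limma's moderated test on log2(TPM+1), with p-values adjusted by Benjamini-Hochberg over all 12504 genes, and a gene passed at an adjusted p under 0.05. The 1629 genes are 13.0% of those tested. In 838 of them (6.70% of tested genes) the male change lay above the female change and in 791 (6.33%) below it. Each pair alone gave 3306 genes that differed between KO and WT in the male pair (26.4%), 1569 higher and 1737 lower in KO, and 1711 in the female pair (13.7%), 829 higher and 882 lower. The interaction reached at least 1 log2 unit in 447 genes and at least 2 units in 85. Values on log2(TPM+1) understate fold changes of genes near 1 TPM. In RNA from whole cultures, fewer cells of a kind and less RNA per cell cannot be told apart.

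**Figure D1:**
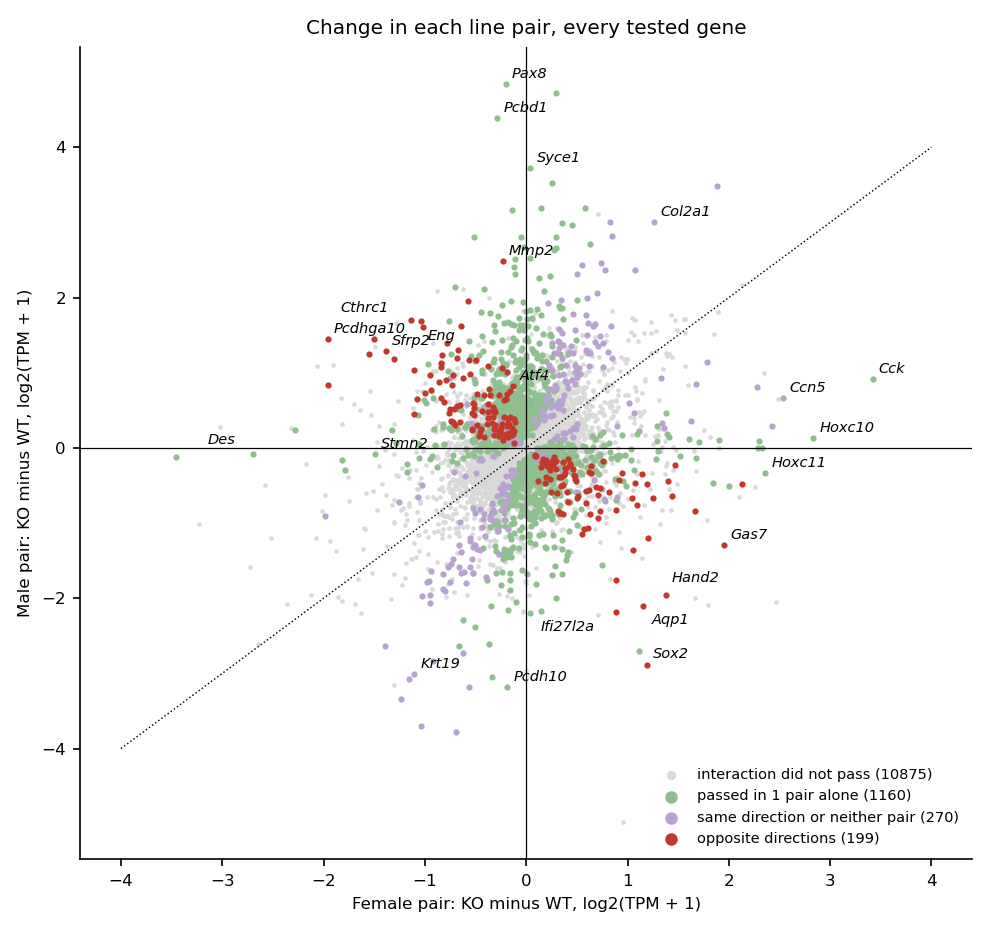
Knockout change of all 12504 tested genes in the male pair (vertical axis, log2(TPM+1)) against the female pair (horizontal axis), coloured by class, with the dotted line where both changes are equal. Genes of opposite direction lie in the upper left (109) and lower right (90) parts, and Pax8, Pcbd1 and Syce1 lie near the vertical axis with male changes of 4.84, 4.39 and 3.72.

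The pairs' own tests split the 1629 genes, as the plot of both changes shows. Genes of opposite direction came in both orders: 109 (0.872% of those tested) were higher in male KO and lower in female KO, and 90 (0.720%) were lower in male KO and higher in female KO. Another 896 genes passed in the male pair alone, 484 higher (3.87%) and 412 lower (3.29%). The female pair alone gave 264, with 152 higher (1.22%) and 112 lower (0.896%). A further 200 genes (1.60%) moved the same way in both pairs by different amounts, 110 up and 90 down, with the larger change in the male pair for 168. In 70 genes (0.560%) neither pair passed on its own. These shares follow from the rule that chose the genes and carry no further meaning.

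A gene that passed in 1 pair alone is not shown to be unchanged in the other. Among the 484 genes higher in the male pair alone, the female estimate had the opposite sign in 332, and its 95% interval lay within 0.322 log2 units of 0 in 232. For the 412 lower in the male pair alone these counts were 261 and 249. Among the 152 genes higher and 112 lower in the female pair alone, the male estimate had the opposite sign in 109 and 81, and its interval lay within 0.322 log2 units of 0 in 82 and 57. The median change in the pair that moved was 0.63 for the first of these classes, where the other pair's median was -0.07.

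Male and female lines were also compared within each genotype. WT lines differed between male and female in 1968 genes (15.7% of those tested) and KO lines in 2622 (21.0%). Of the 1629 genes, 682 passed between the sexes in KO only, 410 passed in WT but not in KO, 241 crossed over, so that the order of male and female was turned round, 203 differed in both genotypes in the same order, and 93 passed in neither. A comparison that did not pass does not show equal levels. Crossing made up 50 of the 109 genes higher in male KO and lower in female KO, and 34 of the 90 with the mirror pattern.

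In many of these genes a group stood apart. All 3 male KO libraries lay above or all 3 lay below the other 9 in 841 of the 1629 genes, 51.6%, where all tested genes gave 16.4%. Male WT stood apart in 554 of them, 34.0% (9.33% of all tested genes), female KO in 307, 18.8% (6.41%), and female WT in 290, 17.8% (9.17%). The interaction that chose the genes uses the same values and favours such layouts, so nothing is read from these differences in share. A gene with 2 groups apart is counted for both.

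The 10 genes of opposite direction with the largest interactions under the naming rule, given with their places on GRCm38, encode secreted and matrix proteins, receptors, a channel, actin-binding and interferon-induced proteins and transcription factors. Cthrc1 (chr15:39076932-39087121) encodes a secreted collagen triple helix repeat protein that promotes cell migration, and stood at 17.2, 15.9 and 15.3 TPM (male WT), 53.4, 53.1 and 57.7 (male KO), 47.2, 44.4 and 42.7 (female WT) and 20.02, 21.7 and 17.8 (female KO). Male KO and female WT were high, male WT and female KO low, and no group overlapped another of the opposite level. KO over WT was 3.39-fold in the male pair and WT over KO was 2.25-fold in the female pair, with log2 changes of 1.70 (95% interval 1.53 to 1.87) and -1.14 (-1.30 to -0.97) and an interaction of 2.84 (adjusted p = 3.6e-08). Sfrp2 (chr3:83766321-83774316), a secreted modulator of Wnt ligands, showed the same layout with 38.7, 37.5 and 40.9 TPM (male WT), 91.5, 101 and 97.3 (male KO), 104, 102 and 93.5 (female WT) and 36.0, 39.9 and 36.5 (female KO). Its levels in male KO and female WT overlapped, as did those in male WT and female KO, while the 2 levels were over 2-fold apart: 2.47-fold up in the male and 2.66-fold down in the female pair, with an interaction of 2.67 (adjusted p = 8.89e-09).

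Mmp2 (chr8:92827291-92853420), the matrix metalloprotease gelatinase A, stood at 25.6, 25.4 and 25.9 TPM (male WT), 144, 151 and 151 (male KO), 49.3, 51.9 and 52.1 (female WT) and 40.2, 43.8 and 46.1 (female KO). Male KO lay far above the other 9 libraries and male WT below them. The male change of 2.49 (2.37 to 2.60) came with a small female change of -0.23 (-0.35 to -0.12, adjusted p = 0.0123), and the interaction was 2.72 (adjusted p = 2.11e-09). The female call is lost when each pair is fitted on its own 6 libraries (adjusted p = 0.0573), so its place among the opposite genes rests on the joint fit. Eng (chr2:32646595-32682669), endoglin, a co-receptor for ligands of the TGF-beta family, stood at 1.77, 1.16 and 0.846 TPM (male WT), 5.94, 5.49 and 7.23 (male KO), 12.7, 13.3 and 13.6 (female WT) and 6.76, 5.04 and 6.08 (female KO). Male WT was lowest, female WT highest, and both KO groups met between them with overlapping values, so changes of 1.69 and -1.035 gave an interaction of 2.72 (2.23 to 3.215, adjusted p = 1.09e-05). Pcdhga10 (chr18:37746993-37841873) is a protocadherin of the gamma cluster, whose members share their last exons and may share reads, and stood at 0.589, 0.671 and 0.842 TPM (male WT), 3.10, 3.79 and 4.07 (male KO), 6.24, 4.90 and 4.83 (female WT) and 0.394, 0.542 and 0.9754 (female KO). With 2 groups under 1 TPM no fold is given. Its changes were 1.45 and -1.96, and the interaction was 3.41 (2.87 to 3.94, adjusted p = 3.89e-06).

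The mirror pattern, lower in male KO and higher in female KO, was led by transcription factors. Sox2 (chr3:34650405-34652461), a factor of pluripotent and neural progenitor cells, stood at 12.03, 14.1 and 16.2 TPM (male WT), 1.72, 0.265 and 1.43 (male KO), 2.45, 2.05 and 2.10 (female WT) and 6.41, 6.12 and 6.40 (female KO). Male WT was high, female KO came next, and male KO and female WT were low, without overlap between the members of a pair. WT over KO was 12.4-fold in the male pair and KO over WT was 2.87-fold in the female pair, with an interaction of -4.08 (-4.82 to -3.34, adjusted p = 1.1e-05). With a pseudocount of 0.1 the female change missed the threshold (adjusted p = 0.0572). Hand2 (chr8:57320983-57324633), a factor of limb bud and heart patterning, stood at 18.1, 17.7 and 16.7 TPM (male WT), 3.61, 4.33 and 3.45 (male KO), 3.29, 2.99 and 3.60 (female WT) and 10.96, 10.1 and 9.33 (female KO). Male WT and female KO were the high groups, and male KO and female WT overlapped. The changes of -1.95 (-2.18 to -1.73) and 1.38 (1.15 to 1.60) gave an interaction of -3.33 (adjusted p = 1.35e-07).

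Aqp1 (chr6:55336432-55348555), a water channel of the plasma membrane, stood at 52.7, 57.6 and 56.4 TPM (male WT), 11.6, 12.3 and 12.6 (male KO), 18.2, 17.4 and 18.5 (female WT) and 43.3, 38.6 and 42.0 (female KO). No group overlapped another, and WT over KO of 4.56-fold in the male pair stood against KO over WT of 2.29-fold in the female pair, with an interaction of -3.25 (-3.44 to -3.06, adjusted p = 2.11e-09). Gas7 (chr11:67455437-67688990), growth arrest specific 7, an actin-binding protein, stood at 9.48, 12.04 and 10.2 TPM (male WT), 2.85, 5.12 and 3.37 (male KO), 5.80, 5.91 and 5.37 (female WT) and 24.4, 25.9 and 24.6 (female KO). Female KO lay above all other libraries. Its interaction was -3.25 (adjusted p = 1.86e-06). Ifi27l2a (chr12:103442167-103443680), an interferon-induced protein, stood at 97.5, 63.5 and 74.8 TPM (male WT), 21.6, 16.3 and 12.02 (male KO), 13.7, 13.6 and 13.2 (female WT) and 25.4, 20.8 and 32.3 (female KO). Male WT lay above the other 9 libraries, while male KO, female WT and female KO lay closer together, and the interaction was -3.07 (-3.72 to -2.43, adjusted p = 3.32e-05). Without female KO replicate 3, its female change missed the threshold (adjusted p = 0.0624).

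**Figure D2:**
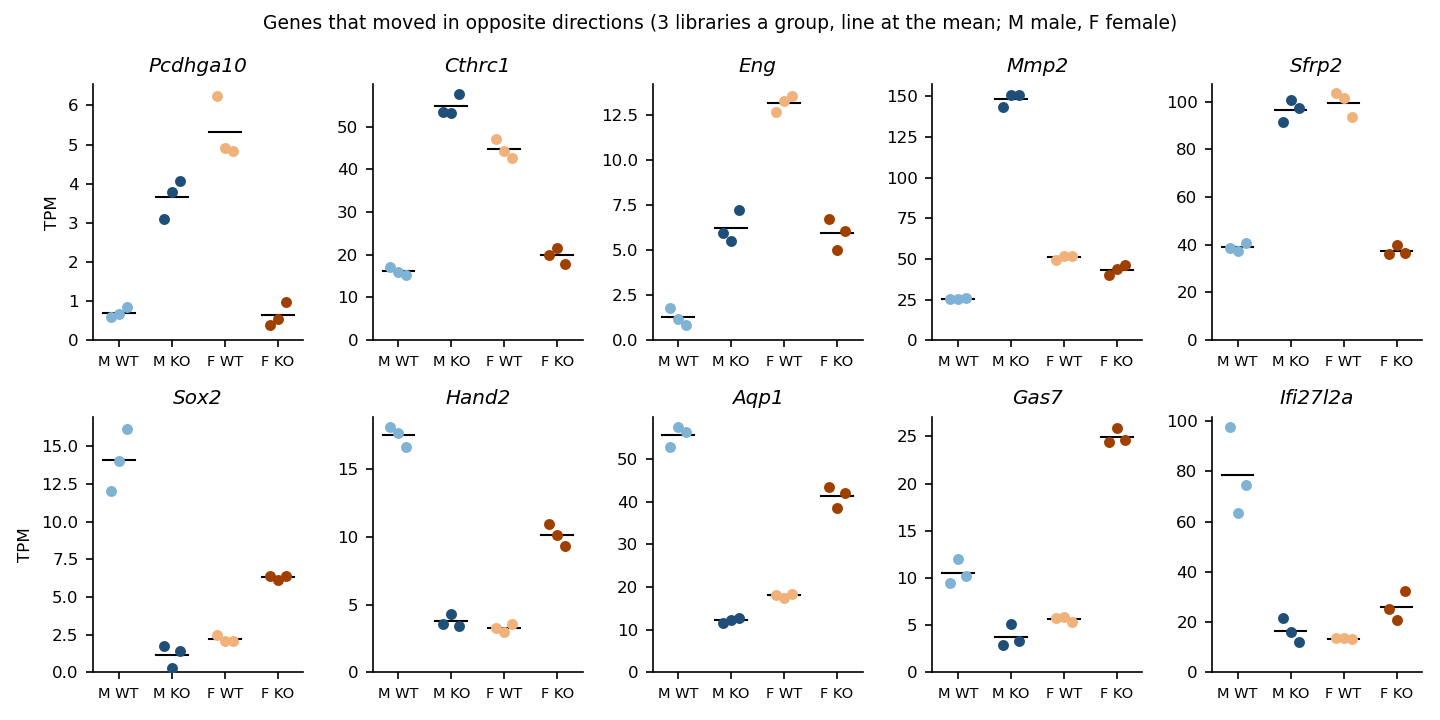
TPM in each of the 12 libraries (points) and the group mean (line) for the 5 leading genes higher in male KO and lower in female KO (upper panels) and the 5 with the mirror pattern (lower panels), on linear axes from 0. In Sfrp2 the male KO libraries, 91.5 to 101 TPM, overlap the female WT libraries, 93.5 to 104 TPM.

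Among 23 gene lists, the one that moved most evenly was the integrated stress response with Atf4 targets. Of 41 tested members, 35 (85.4%, against 13.0% of all tested genes) had a passing interaction, and in all 35 the male change lay above the female change. The median interaction was 0.555, against 0.0047 over all tested genes, with medians of 0.447 in the male and -0.095 in the female pair. In the male pair 37 members rose and none fell, while in the female pair 2 rose and 15 fell. Over all 12504 tested genes, 1569 rose and 1737 fell in the male pair, and 829 rose and 882 fell in the female pair. By class, 13 were opposite, 20 were higher in the male pair alone, and 2, Ddit4 and Nupr1, rose in both. The WT lines already differed: 21 of the 35 were lower in male WT than in female WT, and 29 were higher in male KO than in female KO. Over all tested genes, 15.7% differed between the WT lines and 21.0% between the KO lines, in either direction. All 35 interactions lay between 0.22 and 2.84, and 33 or 34 members passed, all with the male change above, under the 2 other scalings tried.

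Atf4 itself, the central transcription factor, and Chac1 were chosen after their values were seen. Atf4 stood at 204, 218 and 209 TPM (male WT), 365, 368 and 386 (male KO), 283, 289.9 and 278 (female WT) and 260.3, 259.6 and 259 (female KO). Male KO lay above the other 9 libraries and male WT below them, and the female groups did not overlap. The male change was 0.82 (0.75 to 0.89) and the female change -0.13 (-0.20 to -0.055), with an interaction of 0.95 (adjusted p = 2.43e-07). Trib3, a pseudokinase that Atf4 and Ddit3 induce, stood at 21.2, 19.3 and 21.7 TPM (male WT), 57.9, 50.9 and 56.8 (male KO), 30.7, 29.1 and 28.0 (female WT) and 25.9, 27.4 and 25.9 (female KO). Its male change was 1.37, its female change -0.14 (adjusted p = 0.2) and its interaction 1.51 (adjusted p = 1.37e-06). Chac1, which degrades glutathione, rose 2.06-fold in the male pair and changed by -0.19 in the female pair, with an interaction of 1.20 (adjusted p = 1.12e-06).

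Further members of this list are given as single genes, again chosen after their values were seen except for Cth. Cth, the lyase that makes cysteine from cystathionine, stood at 19.4, 16.2 and 16.0 TPM (male WT), 37.1, 36.4 and 30.9 (male KO), 34.5, 34.4 and 34.5 (female WT) and 23.2, 17.9 and 20.9 (female KO). The pairs mirrored each other, with overlapping values in male KO and female WT, and in female KO and male WT. Its interaction was 1.69 (1.37 to 2.01, adjusted p = 1.53e-05). Asns, asparagine synthetase, rose 1.79-fold in the male pair and changed by -0.02 (-0.16 to 0.115) in the female pair, with an interaction of 0.86 (adjusted p = 5.88e-05). Phgdh and Psph, the first and last enzymes of serine synthesis, changed by 0.35 and 0.48 in the male and by -0.11 and -0.315 in the female pair. Fgf21, a secreted stress hormone, stood at 0.754, 0 and 0.144 TPM (male WT), 4.91, 4.54 and 4.21 (male KO), 0.939, 0.602 and 1.07 (female WT) and 0, 0.285 and 0.159 (female KO), and male KO alone was above 2 TPM, with an interaction of 2.84 (adjusted p = 0.000118). The female falls of Cth and Psph passed under all 20 alternatives, while others were small and depend on the setting: the call for Atf4 passed in 13 of 20 alternatives (adjusted p up to 0.0879), for Chac1 in 13 (up to 0.111) and for Phgdh in 6 (up to 0.257), and the count of opposite members ranged from 6 to 13.

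**Figure D3:**
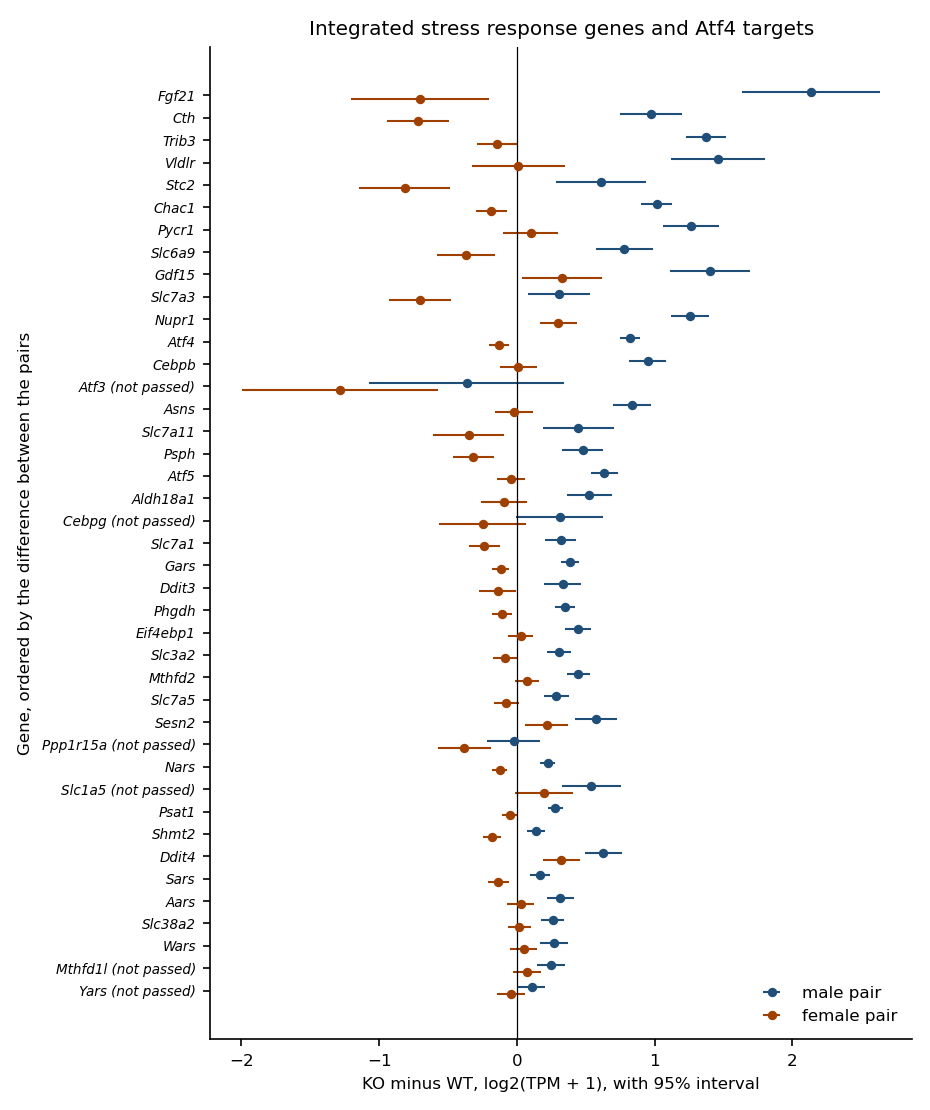
Knockout change of the 41 tested members in the male pair (dark blue) and the female pair (brown), as log2(TPM+1) differences with 95% intervals, ordered by the difference between the pairs. The male estimate lies to the right of the female one in all 41, and the 6 members whose interaction did not pass are marked.

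Promoters of the members of this list were searched for TGATGCAA, the element that Atf4 binds with C/EBP partners, on both strands. RefSeq windows on GRCm38.p6, from 250 bases before to 50 after a start, held it in 0.895% of 32851 windows, in 65 of the 9396 tested genes that had a window (0.692%), and in 9 of the 34 list members that had one. Of the 29 members with a window whose interaction passed, 7 held it. The list was written with Atf4 targets in it, so nothing is read from its share. These 7 follow with 20 bases on each side, 66 to 200 bases before the start, with the match in capitals. Where the capitals begin with TT, the element lies on the opposite strand. Slc7a11, the cystine transporter, held a second match, in lower case near the end of its stretch. A match describes these letters only, and the absence of a match says nothing of binding.
Chac1, chr2:119351029-119351076, plus strand: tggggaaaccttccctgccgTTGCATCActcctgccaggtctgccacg
Pycr1, chr11:120643824-120643871, minus strand: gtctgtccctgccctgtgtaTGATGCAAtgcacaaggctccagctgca
Nupr1, chr7:126625553-126625600, minus strand: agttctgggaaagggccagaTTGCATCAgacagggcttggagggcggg
Vldlr, chr19:27216800-27216847, plus strand: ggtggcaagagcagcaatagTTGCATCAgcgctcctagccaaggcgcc
Fgf21, chr7:45615602-45615649, minus strand: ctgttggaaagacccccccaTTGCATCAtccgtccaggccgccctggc
Slc7a11, chr3:50443652-50443699, minus strand: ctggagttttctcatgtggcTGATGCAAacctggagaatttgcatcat
Aars, chr8:111033710-111033757, plus strand: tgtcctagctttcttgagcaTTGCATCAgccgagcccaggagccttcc

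The interferon-stimulated and antigen presentation genes went the other way. Of 41 tested members, 20 (48.8%, against 13.0% of all tested genes) had a passing interaction. In 19 of them the male change lay below the female change. The medians were -0.831 in the male pair, -0.235 in the female pair and -0.651 for the interaction. In the male pair 31 members fell and 1 rose, and in the female pair 16 fell and 1 rose. Over all 12504 tested genes, 1737 fell and 1569 rose in the male pair, and 882 fell and 829 rose in the female pair. By class, 11 of the 20 moved the same way in both pairs and 8 were lower in the male pair alone. All 3 male WT libraries lay above the other 9 in 19 of the 20, against 282 of all 1629 and 615 of 12504 tested genes. Between the WT lines, 15.7% of all tested genes differed in either direction. In 18 of the 20 male WT was above female WT, so the larger male fall started from a higher WT level. The count ran from 10 at an adjusted p under 0.01 to 22 with quantile normalization.

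Oas1g and Oas1a make the second messenger of antiviral RNA decay, and as paralogs they may share reads, so their separate values are uncertain. Oas1g stood at 15.9, 13.2 and 14.3 TPM (male WT), 1.65, 1.69 and 1.28 (male KO), 3.61, 4.81 and 3.93 (female WT) and 1.999, 3.497 and 3.60 (female KO), and Oas1a at 28.4, 29.7 and 28.9 TPM (male WT), 9.52, 8.08 and 8.02 (male KO), 13.4, 15.8 and 11.9 (female WT) and 10.01, 11.1 and 13.4 (female KO). Both were highest in male WT, followed by the female groups, whose values overlap in Oas1a, and lowest in male KO. Their interactions were -2.245 (adjusted p = 8.65e-05) and -1.42 (adjusted p = 0.000157). Isg15, a ubiquitin-like modifier, and the other members given here were chosen after their values were seen. Isg15 stood at 234, 250.1 and 215 TPM (male WT), 68.0, 66.6 and 65.6 (male KO), 121, 135 and 116 (female WT) and 64.2, 56.0 and 66.9 (female KO), with male WT highest, female WT next and the KO groups together. It fell by 1.79 log2 units in the male pair and by 0.98 in the female pair, with an interaction of -0.80 (adjusted p = 0.000399). Bst2, tetherin, which holds virions at the cell surface, stood at 625, 637 and 608 TPM (male WT), 229, 224 and 250.4 (male KO), 353, 350.0 and 308 (female WT) and 274, 277 and 285 (female KO). Its interaction was -1.14 (adjusted p = 2.52e-06). Irf7, the factor that drives type I interferon genes, fell by 1.67 in the male pair and by 0.53 in the female pair, the latter passing in 13 of 20 alternatives.

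H2-K1 and Ifi27 were also named after their values were seen. In both, male WT lay above the other 9 libraries and male KO came next. H2-K1, a class I antigen presentation chain, stood at 225, 230.2 and 225 TPM (male WT), 180.3, 177 and 183 (male KO), 144, 138 and 141 (female WT) and 101, 98.8 and 100.2 (female KO). It fell by 0.33 in the male and by 0.49 in the female pair, giving the single positive interaction among the 20 that passed, 0.16 (adjusted p = 0.0238), which was lost under 9 alternatives with adjusted p up to 0.0784. Ifi27 stood at 213, 225 and 199.8 TPM (male WT), 188, 189 and 194 (male KO), 86.2, 91.5 and 85.4 (female WT) and 134, 134 and 154 (female KO) and rose in the female pair alone by 0.67. The male estimate was -0.16 (-0.29 to -0.03).

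The promoters of this list were searched for TTCNNTTTC, the core of the interferon-stimulated response element, on both strands of the same windows. It occurred in 8.56% of 32851 windows and in 788 of 9396 tested genes with a window (8.39%). Of the list members with a window, 17 of 32 held it, and 13 of the 16 of those whose interaction passed. The list was written from interferon-stimulated genes, so nothing is read from these shares. The stretches that follow, chosen for the genes with values given here and for B2m, a subunit of class I antigen presentation, hold the element 18 to 139 bases before the start, with the first match in capitals, which begin with GAAA where the element lies on the opposite strand. The stretches of Oas1a and Oas1g are identical.
Isg15, chr4:156200868-156200916, minus strand: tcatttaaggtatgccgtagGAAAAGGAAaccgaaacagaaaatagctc
Oas1a, chr5:120907517-120907565, minus strand: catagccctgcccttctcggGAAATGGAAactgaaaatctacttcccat
Oas1g, chr5:120887603-120887651, minus strand: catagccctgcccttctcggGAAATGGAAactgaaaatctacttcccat
Bst2, chr8:71537574-71537622, minus strand: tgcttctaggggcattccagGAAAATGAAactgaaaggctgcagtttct
B2m, chr2:122147528-122147576, plus strand: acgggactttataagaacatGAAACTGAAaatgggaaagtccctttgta

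Hox genes, which record position along the body axis, differed cluster by cluster. Of 32 tested members, 21 (65.6%, against 13.0% of all tested genes) had a passing interaction. In 9 the male change lay above the female change and in 12 below it. All 7 passing genes of the Hoxa cluster lay above, and all 5 of the Hoxb and all 5 of the Hoxc cluster lay below. In the Hoxd cluster 2 lay above and 2 below. The median interactions were 0.968 (Hoxa), -1.101 (Hoxb), -1.203 (Hoxc) and -0.384 (Hoxd), and -0.382 over the list. The count of 9 above and 12 below was the same under both other scalings. In the female pair 17 Hox genes rose and 5 fell, the 5 all in the Hoxa cluster, where none rose. Over all 12504 tested genes, 829 rose and 882 fell in that pair. In 15 of the 21 the lines differed in both genotypes in the same order, against 203 of all 1629.

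Hoxc10 and Hoxc11, posterior members expressed in hindlimb and lower trunk, led the list. Hoxc10 stood at 0.0630, 0.133 and 0.0601 TPM (male WT), 0.104, 0.217 and 0.240 (male KO), 0.725, 0.995 and 1.65 (female WT) and 12.9, 13.1 and 15.9 (female KO), and Hoxc11 at 0.0590, 0.561 and 0.338 TPM (male WT), 0.0975, 0 and 0 (male KO), 1.46, 1.22 and 1.61 (female WT) and 10.7, 11.2 and 12.6 (female KO). Female KO was high, female WT low and both male groups lower still. KO over WT in the female pair was 12.4-fold and 8.03-fold, with interactions of -2.70 (adjusted p = 2.91e-05) and -2.70 (adjusted p = 2.11e-05). Hoxc12, their neighbour, was listed at 0 in all 6 male libraries, at 0.480, 1.08 and 0.824 TPM in female WT and at 6.52, 6.74 and 11.1 TPM in female KO. The interaction of -2.32 (adjusted p = 0.000326) is thus the female change alone.

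The next Hox genes were chosen after their values were seen. Hoxb9 stood at 5.30, 5.49 and 5.60 TPM (male WT), 2.13, 3.37 and 2.47 (male KO), 14.2, 14.0 and 15.1 (female WT) and 50.7, 46.4 and 46.4 (female KO), falling in the male pair by 0.83 and rising in the female pair by 1.66. Hoxa10 stood at 29.1, 28.8 and 27.7 TPM (male WT), 47.9, 46.6 and 46.9 (male KO), 42.4, 42.8 and 40.0 (female WT) and 31.5, 32.3 and 32.9 (female KO) and did the reverse, 0.71 against -0.36. Hoxd13, the most distal gene of its cluster, stood at 135, 139 and 139 TPM (male WT), 72.8, 72.7 and 71.8 (male KO), 35.6, 37.3 and 34.2 (female WT) and 36.6, 35.7 and 36.6 (female KO), falling in the male pair alone by 0.92. Its female interval was -0.06 to 0.11, and both female groups lay under both male groups. Hoxd11 changed by -0.37 and 0.37, and these calls passed in 16 and 14 of 20 alternatives.

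**Figure D4:**
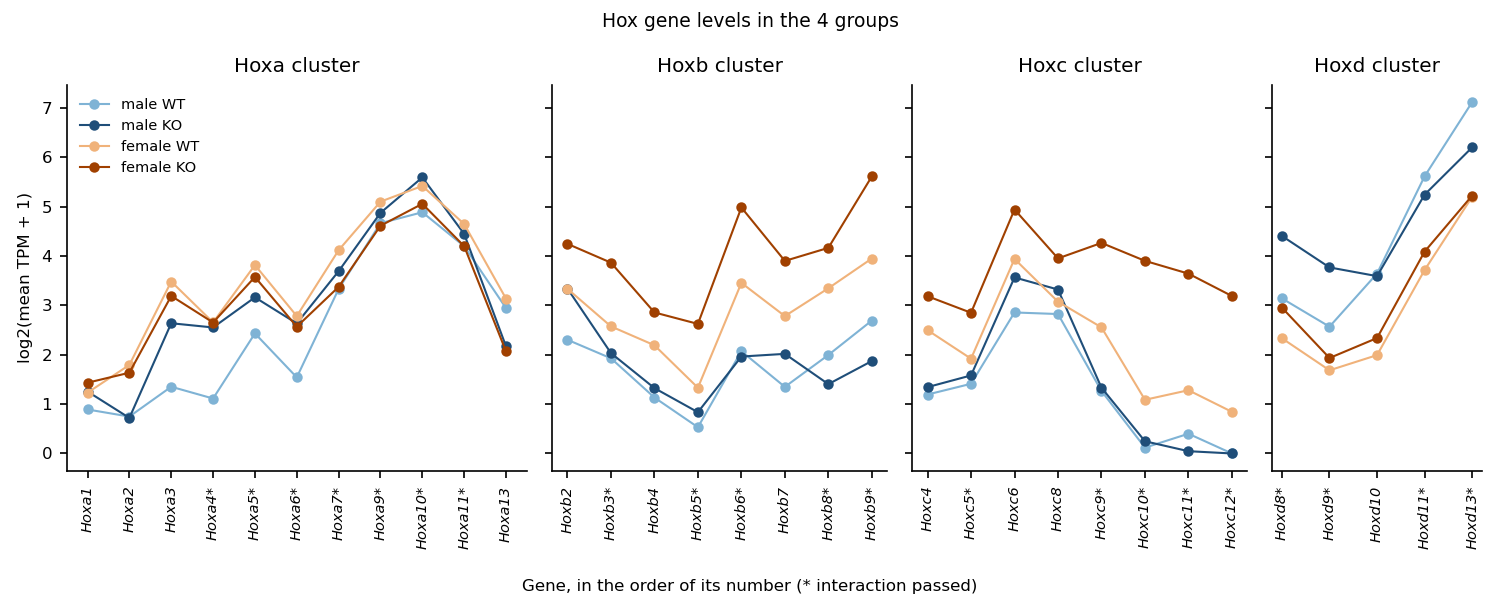
Mean levels of the 32 tested Hox genes as log2(mean TPM + 1) in the 4 groups, by cluster and in the order of gene number, with an asterisk where the interaction passed. Female KO lies above the other 3 groups across the Hoxb and Hoxc clusters, and both male groups lie above both female groups across the Hoxd cluster.

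Other positional and lineage transcription factors gave 28 passing genes of 52 tested (53.8%), 17 with the male change above and 11 below, with 11 opposite and a median interaction of 0.06. The leading named gene was Pax8, a factor of kidney and thyroid development, at 0.0452, 0.0955 and 0.578 TPM (male WT), 32.3, 32.0 and 37.8 (male KO), 0.160, 0 and 0.919 (female WT) and 0.0588, 0.0307 and 0.340 (female KO). Male KO lay above 30 TPM and every other library under 1 TPM, so no fold is given, and the interaction was 5.04 (4.26 to 5.83, adjusted p = 3.5e-06). Pcbd1 is not a member of this list and was named among the leading genes higher in the male pair alone. An enzyme of tetrahydrobiopterin recycling that also acts as a transcriptional cofactor, it stood at 0.197, 0.206 and 0 TPM (male WT), 24.2, 24.2 and 19.9 (male KO), 0.704, 1.104 and 1.41 (female WT) and 0, 0.375 and 2.48 (female KO), with an interaction of 4.67 (adjusted p = 9.15e-05). Pax8 and Pcbd1 were high in male KO and low or listed at 0 elsewhere. The female change of Pcbd1 passed only without female KO replicate 3 (adjusted p = 0.0393).

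Further members of the positional and lineage list are given as single genes, chosen after their values were seen. Foxc1, a forkhead factor of mesoderm, stood at 12.3, 14.6 and 14.7 TPM (male WT), 29.7, 34.8 and 33.0 (male KO), 16.9, 15.4 and 15.1 (female WT) and 11.3, 10.3 and 11.2 (female KO), rising in the male and falling in the female pair with an interaction of 1.67 (adjusted p = 5.03e-06). Wt1, a factor of kidney, gonad and mesothelium, stood at 1.85, 1.02 and 1.496 TPM (male WT), 5.69, 5.11 and 3.68 (male KO), 3.94, 2.91 and 3.17 (female WT) and 0.682, 0.271 and 0.485 (female KO), with an interaction of 2.80 (adjusted p = 4.15e-05). Msx1 and Prrx1, homeobox factors of limb mesenchyme, fell in the male and rose in the female pair. Msx1 stood at 6.09, 6.17 and 6.58 TPM (male WT), 1.34, 2.21 and 2.01 (male KO), 2.85, 2.88 and 1.88 (female WT) and 5.78, 6.12 and 6.95 (female KO), with an interaction of -2.42 (adjusted p = 2.55e-05). Prrx1 stood at 141, 137 and 140.2 TPM (male WT), 86.2, 101 and 88.7 (male KO), 99.3, 98.9 and 101 (female WT) and 125, 121 and 124 (female KO), with an interaction of -0.90 (adjusted p = 9.77e-06). Male WT was highest for Prrx1 and male KO lowest. Pitx1, the factor that specifies hindlimb, stood at 3.18, 3.76 and 3.75 TPM (male WT), 0, 0.0543 and 0 (male KO), 1.97, 2.05 and 2.25 (female WT) and 2.31, 1.31 and 1.63 (female KO) and fell in the male pair alone. Foxd1, a factor of kidney stroma, rose in both pairs by 3.00 and 0.83, and Nr2f1, an orphan nuclear receptor, fell in both, by 3.34 and 1.24.

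In each of the 3 matrix lists most tested members had a passing interaction. Of 24 tested collagen chains, 15 (62.5%) had a passing interaction, 10 with the male change above and 5 below, and 12 and 5 under either other scaling, with a median interaction of 0.153. Col15a1, a basement membrane collagen, stood at 3.20, 2.79 and 3.65 TPM (male WT), 19.8, 19.1 and 20.6 (male KO), 10.2, 11.1 and 10.4 (female WT) and 9.16, 10.4 and 9.58 (female KO). Male WT was low, male KO high, and the female groups overlapped. Its interaction was 2.42 (2.13 to 2.71, adjusted p = 5.09e-07). Col2a1, the main collagen of cartilage, stood at 1.61, 1.74 and 1.64 TPM (male WT), 21.4, 22.0 and 17.7 (male KO), 8.59, 7.26 and 11.3 (female WT) and 20.9, 22.5 and 24.8 (female KO), so it rose in both pairs, 12.3-fold and 2.52-fold, to overlapping KO levels. The interaction was 1.74 (adjusted p = 0.000106). Named after their values were seen, Col4a1, a basement membrane chain, and Col7a1, the anchoring fibril collagen, were opposite with changes of 0.27 and -0.25 for Col4a1 and -0.83 and 0.89 for Col7a1.

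Of 45 matrix glycoproteins and proteoglycans, 27 (60.0%) passed, 17 above and 10 below, with a median interaction of 0.056, and 16 of them moved the same way in both pairs by different amounts. Tgfbi, a secreted adhesion protein, stood at 29.1, 33.8 and 28.4 TPM (male WT), 159, 179 and 167 (male KO), 16.8, 20.1 and 18.6 (female WT) and 26.3, 26.7 and 29.5 (female KO). Male KO was far above the rest, with changes of 2.43 in the male and 0.55 in the female pair. Aspn, asporin, a small leucine-rich proteoglycan, stood at 21.2, 19.5 and 19.8 TPM (male WT), 23.7, 25.5 and 25.1 (male KO), 5.19, 4.74 and 4.34 (female WT) and 29.3, 28.9 and 31.7 (female KO). Here female WT was the low group, and the changes of 0.29 and 2.43 gave an interaction of -2.14 (-2.37 to -1.92, adjusted p = 2.43e-07). In this list 12 passing genes had male KO above the other 9 libraries, against 471 of all 1629 and 990 of 12504 tested genes. In 10 of the list female WT lay below the other 9, against 160 of the 1629 and 466 of the 12504.

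Matrix proteases, their inhibitors and crosslinking enzymes were the list with most opposite genes after the stress response and the positional factors. Of 37 tested, 22 (59.5%) passed, 16 above and 6 below, with a median interaction of 0.276, and 7 were opposite. Among them Mmp2, Mmp13, Adamts5, Lox and Ctsk rose in the male and fell in the female pair, and Loxl2 did the reverse. Mmp23, a membrane-anchored metalloprotease, stood at 2.87, 6.42 and 4.08 TPM (male WT), 14.8, 14.8 and 14.4 (male KO), 16.6, 12.1 and 12.4 (female WT) and 12.5, 13.2 and 12.8 (female KO). Male WT was low and the other 9 libraries lay between 12.1 and 16.6 TPM, with an interaction of 1.64 (adjusted p = 0.00188). Lox, the enzyme that crosslinks collagen and elastin, stood at 648, 653 and 629 TPM (male WT), 960.0, 1075 and 995 (male KO), 581, 592 and 569 (female WT) and 503, 493 and 517 (female KO). It was chosen after its values were seen, with male KO above the other 9 libraries and an interaction of 0.85 (adjusted p = 1.87e-06). Loxl2, a related oxidase named likewise, had -0.50 (adjusted p = 0.000549).

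In the Wnt pathway 19 of 36 tested members (52.8%) passed, 11 above and 8 below, with a median interaction of -0.01. Wnt10b, a ligand that holds back adipocyte formation, stood at 19.03, 26.9 and 24.0 TPM (male WT), 1.24, 1.52 and 2.30 (male KO), 9.74, 9.24 and 9.36 (female WT) and 6.45, 5.89 and 5.91 (female KO). Male WT was highest and male KO lowest, and the interaction was -2.62 (adjusted p = 1.02e-05). Its female change of -0.56 passed in 12 of 20 alternatives. Wnt5a, a ligand of non-canonical signalling, and Ccnd1, the G1 cyclin and a Wnt target, were chosen after their values were seen and moved in opposite directions. Ccnd1 stood at 63.3, 65.3 and 66.3 TPM (male WT), 30.8, 30.4 and 30.1 (male KO), 57.6, 54.5 and 56.7 (female WT) and 91.0, 83.8 and 83.9 (female KO). Male KO was lowest and female KO highest, with no overlap between groups, and the interaction was -1.68 (-1.815 to -1.54, adjusted p = 3.6e-08). Wnt5a changed by -0.575 and 0.59.

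In the TGF-beta and BMP pathway 17 of 39 tested members (43.6%) passed, 9 above and 8 below, among them Eng, with a median interaction of -0.039. Bmp2, a ligand of bone and cartilage formation, stood at 3.12, 3.47 and 2.98 TPM (male WT), 0.285, 0.288 and 0.299 (male KO), 5.17, 3.87 and 3.48 (female WT) and 5.38, 5.04 and 4.99 (female KO). Male KO lay under the other 9 libraries, and the interaction was -1.955 (adjusted p = 4.83e-05). Of the FGF, PDGF, EGF and HGF genes 16 of 36 (44.4%) passed, 7 above and 9 below, with a median of -0.095. Fgf5, a growth factor ligand, stood at 6.51, 10.2 and 8.91 TPM (male WT), 1.28, 0.428 and 1.21 (male KO), 3.99, 3.28 and 4.43 (female WT) and 1.68, 2.50 and 2.35 (female KO), with an interaction of -1.66 (adjusted p = 0.00363). Egfr, the EGF receptor, stood at 12.5, 15.9 and 11.9 TPM (male WT), 20.9, 30.1 and 33.0 (male KO), 20.1, 21.2 and 27.8 (female WT) and 17.3, 14.4 and 25.2 (female KO), and its interaction of 1.28 had an adjusted p of 0.0163. Fgf7 and Spry1 were chosen after their values were seen. Fgf7, a ligand for epithelial cells, was opposite, with 0.46 and -0.76, the male call passing in 7 of 20 alternatives. Spry1, a feedback inhibitor of receptor signalling, rose in the female pair alone by 1.09, with a male interval of -0.02 to 0.38.

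Insulin-like growth factor and imprinted genes gave 10 passing of 27 tested (37.0%), 6 above and 4 below, with a median interaction of -0.024. H19, Meg3, Rian, Mirg and Peg13 were not analysed here. Dlk1, an imprinted Notch-related protein that restrains adipocyte formation, stood at 209.7, 221 and 208 TPM (male WT), 130.4, 133 and 139 (male KO), 171, 175 and 177 (female WT) and 417, 410.4 and 426 (female KO). Female KO lay above and male KO below every other library, and the changes of -0.665 (-0.74 to -0.59) and 1.26 (1.18 to 1.33) gave an interaction of -1.92 (adjusted p = 2.11e-09). Igfbp3, a carrier of insulin-like growth factors, stood at 37.8, 39.7 and 37.9 TPM (male WT), 8.55, 9.14 and 7.0003 (male KO), 11.2, 9.55 and 9.73 (female WT) and 8.09, 5.93 and 9.59 (female KO). Male WT was high and the other groups low, and the interaction was -1.75 (adjusted p = 0.00013). Igfbp4, another such carrier, and Cdkn1c, the imprinted cyclin-dependent kinase inhibitor p57, were chosen after their values were seen. Igfbp4 stood at 35.7, 34.4 and 37.9 TPM (male WT), 70.1, 64.5 and 66.6 (male KO), 37.6, 44.5 and 42.1 (female WT) and 20.04, 22.6 and 24.6 (female KO), opposite in the pairs. Cdkn1c fell in the male pair alone by 1.15, with a female interval of -0.04 to 0.38.

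Adhesion receptors gave 17 passing of 35 tested (48.6%), 6 above and 11 below, with a median interaction of -0.095. Cdh6, a cadherin of the developing kidney, stood at 1.55, 1.39 and 1.83 TPM (male WT), 20.2, 25.2 and 21.5 (male KO), 0.926, 1.248 and 1.07 (female WT) and 0.928, 0.956 and 0.778 (female KO). Male KO was 14.0-fold above male WT, all other libraries lay under 2 TPM, and the interaction was 3.31 (adjusted p = 6.78e-07). L1cam, a neural adhesion molecule of the immunoglobulin family, stood at 4.09, 5.27 and 3.26 TPM (male WT), 17.6, 18.7 and 18.1 (male KO), 3.51, 2.98 and 2.73 (female WT) and 2.77, 1.96 and 2.65 (female KO), with an interaction of 2.13 (adjusted p = 4.8e-05). Itga5 and Cd34 were chosen after their values were seen. Itga5, the fibronectin receptor subunit, was opposite, with 0.31 and -0.31. Cd34, a sialomucin of progenitor cells, rose 3.36-fold in the female pair alone, with a male interval of -0.38 to 0.11.

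Actomyosin and contractile genes gave 9 of 31 (29.0%), 3 above and 6 below, with a median interaction of -0.004. Des, the muscle intermediate filament protein desmin, stood at 0.113, 0.199 and 0.215 TPM (male WT), 0.124, 0.129 and 0.0712 (male KO), 5.71, 6.46 and 6.603 (female WT) and 0, 0.344 and 0.0391 (female KO). Only female WT held desmin mRNA above 1 TPM, and the interaction was 2.61 (2.06 to 3.16, adjusted p = 3.26e-05). Csrp2, a LIM protein of smooth muscle, stood at 92.2, 99.2 and 103 TPM (male WT), 184, 180.2 and 196 (male KO), 149, 140.1 and 147 (female WT) and 128, 142 and 138 (female KO), with an interaction of 1.02 (adjusted p = 5.79e-06). Axon guidance genes gave 13 of 42 (31.0%), 6 above and 7 below, with a median of 0.137. Robo2, a receptor for Slit ligands, stood at 1.05, 0.491 and 0.894 TPM (male WT), 5.89, 6.34 and 8.23 (male KO), 1.47, 0.816 and 0.596 (female WT) and 0.221, 0.849 and 0.336 (female KO), high in male KO, with an interaction of 2.53 (adjusted p = 0.000321). Sema5a, a guidance semaphorin, rose in the female pair by 0.69 with a male estimate of -0.30 (-0.59 to -0.02) and an interaction of -0.99 (adjusted p = 0.00356).

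Chemokines, cytokines and complement genes gave 14 passing of 30 tested (46.7%), 11 above and 3 below, with a median interaction of 0.021. Male KO lay above the other 9 libraries in 10 of the 14, against 471 of all 1629 and 990 of 12504 tested genes. Ccl20, a ligand for Ccr6 on lymphocytes, stood at 1.59, 1.63 and 1.76 TPM (male WT), 13.8, 14.0 and 14.6 (male KO), 3.49, 3.14 and 1.20 (female WT) and 1.93, 1.18 and 4.05 (female KO). Cxcl1, a neutrophil attractant, stood at 9.54, 10.9 and 10.5 TPM (male WT), 53.6, 55.9 and 49.99 (male KO), 4.57, 4.85 and 4.77 (female WT) and 5.46, 5.06 and 5.22 (female KO). Both were high in male KO, with interactions of 2.62 (adjusted p = 0.00167) and 2.14 (adjusted p = 2.43e-07). Ccl7, a monocyte attractant chosen after its values were seen, rose in both pairs, more in the female pair. It stood at 42.5, 34.2 and 42.7 TPM (male WT), 48.7, 48.7 and 55.9 (male KO), 14.5, 11.4 and 13.0 (female WT) and 41.6, 40.2 and 44.5 (female KO). Female WT was the low group, and the changes were 0.36, a call that passed in 18 of 20 alternatives, and 1.63.

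Hif1a and its hypoxia targets gave 11 passing of 28 tested (39.3%), all above, with a median interaction of 0.156. Slc16a3, the lactate exporter Mct4, stood at 14.0, 10.01 and 13.7 TPM (male WT), 48.5, 46.2 and 43.2 (male KO), 15.9, 20.7 and 19.03 (female WT) and 12.1, 12.3 and 15.6 (female KO). Male KO was 3.65-fold above male WT, the female change of -0.45 had an adjusted p of 0.0526 and passed under 4 alternatives, and the interaction was 2.25 (adjusted p = 1.6e-05). Bnip3, a mitophagy receptor, had an interaction of 1.096 (adjusted p = 0.0149), its male call passing in 17 of 20 alternatives, and Hif1a itself, named after its values were seen, rose in the male pair by 0.53 with a female interval of -0.03 to 0.17. Glycolysis, lactate and pentose phosphate enzymes gave 6 of 28 (21.4%), 4 above and 2 below, with a median of 0.02. Ldhb, the lactate dehydrogenase chain of oxidative tissue, stood at 25.8, 25.3 and 22.2 TPM (male WT), 109.5, 107 and 106 (male KO), 30.4, 22.0 and 29.8 (female WT) and 29.2, 31.4 and 31.7 (female KO). It rose 4.39-fold in the male pair, with an interaction of 1.92 (adjusted p = 6.94e-06).

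Redox enzymes and Nrf2 targets gave 16 of 40 (40.0%), 10 above and 6 below, with a median interaction of 0.104. Mgst1, a membrane glutathione transferase, stood at 1.52, 3.72 and 2.13 TPM (male WT), 4.91, 7.68 and 8.42 (male KO), 4.01, 5.77 and 4.55 (female WT) and 2.34, 1.94 and 2.41 (female KO), with an interaction of 2.06 (adjusted p = 0.00165). Its female call passed in 11 of 19 alternatives, with adjusted p up to 0.132. Gpx7, a glutathione peroxidase of the endoplasmic reticulum (ER), stood at 11.7, 12.5 and 9.75 TPM (male WT), 34.2, 34.9 and 32.7 (male KO), 12.3, 14.8 and 12.7 (female WT) and 15, 16.5 and 13.6 (female KO), with an interaction of 1.34 (adjusted p = 7.95e-05). Gpx8, its paralog, was chosen after its values were seen and moved the other way, at 211, 198 and 201 TPM (male WT), 159, 156 and 155 (male KO), 151, 152 and 141 (female WT) and 206, 211 and 204 (female KO). It fell by 0.375 in the male pair and rose by 0.48 in the female pair, with an interaction of -0.86 (adjusted p = 1.37e-06).

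The ER folding and unfolded protein response list gave 7 of 28 (25.0%), 3 above and 4 below, or 4 above and 3 below under either other scaling, and none was opposite. The median interaction was -0.02. Herpud1, of ER-associated degradation, rose by 0.87 and 0.40, with an interaction of 0.47 (adjusted p = 0.003). Pdia6, a disulfide isomerase, rose by 0.15 and 0.46, with an interaction of -0.31 (adjusted p = 0.000266). Cholesterol synthesis and uptake gave 2 of 24 (8.33%), among them Mvd, an enzyme of the mevalonate route, with -0.34 (adjusted p = 0.0231), a call lost without any 1 of 4 single libraries. In the male pair 13 genes of this list rose (1569 of all 12504 tested), in the female pair 11 (829), and none fell. The median interaction was 0.017.

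Cell cycle and p53 targets gave 5 of 35 (14.3%), all below, with a median interaction of -0.109. That share is near the 13.0% of all tested genes, so nothing is read from the count. At an adjusted p under 0.01 it was 1. Ccng1, a p53 target, stood at 74.6, 68.5 and 68.2 TPM (male WT), 61.9, 66.0 and 67.3 (male KO), 74.0, 74.5 and 71.3 (female WT) and 97.3, 89.99 and 97.7 (female KO), higher in female KO, with an interaction of -0.48 (adjusted p = 0.00101). Ccne1, the S phase cyclin E1, had -0.37 (adjusted p = 0.0292), a call lost under 9 alternatives, with an adjusted p of 0.0549 when the replicate number was a term. Mitochondrial ribosomal proteins gave 6 of 78 (7.69%), 3 above and 3 below, with a median of -0.009. Mrpl23 stood at 21.6, 31.8 and 30.6 TPM (male WT), 12.3, 14.1 and 15.8 (male KO), 19.6, 25.7 and 26.0 (female WT) and 19.9, 27.1 and 25.7 (female KO), with an interaction of -0.96 (adjusted p = 0.0198) that was lost without male WT replicate 3 (adjusted p = 0.0509). Mrps14 had 0.37 (adjusted p = 0.038), lost under 14 alternatives. Cytosolic ribosomal proteins gave 12 of 78 (15.4%, also near 13.0%), 1 above and 11 below, or 8 below with median-of-ratios scaling. At an adjusted p under 0.01, 4 passed. The median interaction was -0.094. Rps29 stood at 2097, 2006 and 2165 TPM (male WT), 1861, 2023 and 1738 (male KO), 1628, 1466 and 1569 (female WT) and 1869, 1832 and 1879 (female KO), and Rpl38 at 2706, 2595 and 2758 TPM (male WT), 2527, 2446 and 2234 (male KO), 2207, 2058 and 2167 (female WT) and 2469, 2348 and 2524 (female KO). Their interactions of -0.42 (adjusted p = 0.00316) and -0.35 (adjusted p = 0.00415) are small, both genes were lower in male KO and higher in female KO, many pseudogenes share ribosomal protein reads, and their male calls passed in 6 and 12 of 20 alternatives, the female call of Rpl38 in 14. Rpl39l, a paralog of Rpl39 seen in testis, named after its values were seen, was listed at 0 in female WT and at 2.65, 3.35 and 1.93 TPM in female KO, with an interaction of -2.31 (adjusted p = 0.000339). It was not confined to female KO: male WT passed as higher than female WT, and male KO as lower than female KO. Its male change was -0.47 (adjusted p = 0.134).

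**Figure D5:**
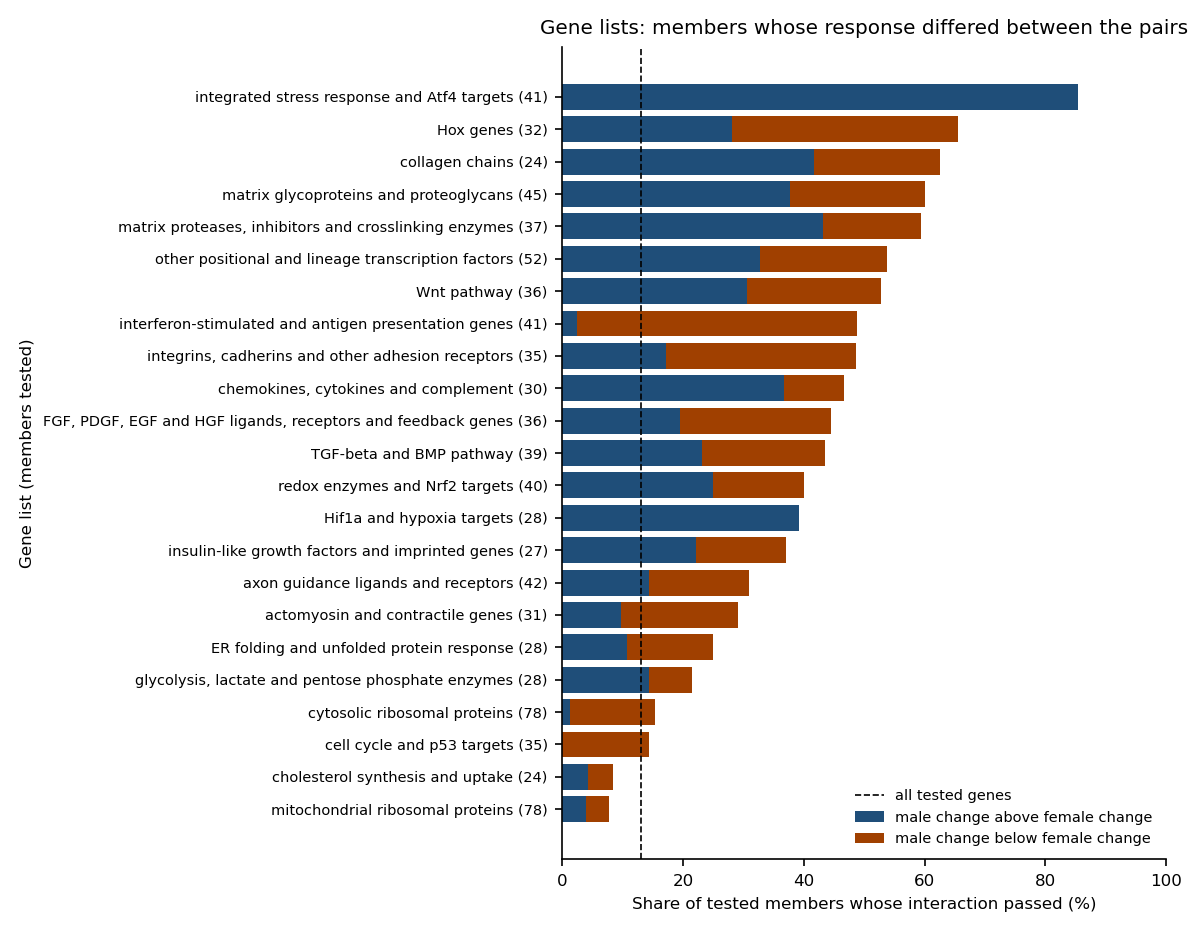
Share of tested members whose interaction passed in each of the 23 lists, split by whether the male change lay above (dark blue) or below (brown) the female change, with the share of all tested genes, 13.0%, as a dashed line. The integrated stress response stands at 85.4% and the mitochondrial ribosomal proteins at 7.69%.

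Outside the lists, the leading genes of 1 pair alone had varied functions. Syce1, a protein of the meiotic synaptonemal complex, was listed at 0 in 8 of the 9 libraries outside male KO and stood at 12.1, 13.3 and 11.3 TPM there. It lies 75.8 kb from Sirt3 on chromosome 7, and its interaction was 3.68 (adjusted p = 9.4e-07). Among genes lower in the male pair alone, Pcdh10, a protocadherin, stood at 8.68, 10.6 and 12.8 TPM (male WT), 0.474, 0.162 and 0.202 (male KO), 3.70, 1.98 and 2.10 (female WT) and 2.81, 1.74 and 1.81 (female KO). Sox21, a relative of Sox2 in neural progenitors, stood at 6.63, 8.70 and 7.75 TPM (male WT), 0.0725, 0 and 0.0556 (male KO), 0.828, 0.403 and 0.531 (female WT) and 0.0778, 0.325 and 0.366 (female KO). Both were high in male WT and low in male KO, with interactions of -3.00 (adjusted p = 5.77e-05) and -2.72 (adjusted p = 2.86e-05). Syt7, a calcium sensor of exocytosis, stood at 6.71, 7.75 and 6.61 TPM (male WT), 1.12, 0.664 and 0.606 (male KO), 1.16, 1.48 and 1.18 (female WT) and 2.18, 1.06 and 1.43 (female KO), with -2.31 (adjusted p = 0.000118). Pabpc4l, of the poly(A) binding family, stood at 3.78, 5.62 and 6.05 TPM (male WT), 1.14, 0.948 and 1.097 (male KO), 1.01, 2.28 and 1.09 (female WT) and 2.76, 2.37 and 4.15 (female KO). Its interaction was -2.31 (adjusted p = 0.000638). Its female change of 0.75 had an adjusted p of 0.0553 and passed under 5 of 19 alternatives.

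In the female pair alone, Cck, the peptide hormone cholecystokinin, stood at 0.966, 0 and 0.463 TPM (male WT), 1.23, 3.41 and 0.945 (male KO), 0.877, 0.735 and 2.24 (female WT) and 25.3, 23.5 and 19.01 (female KO). Female KO was high, and the female change was 3.42 (2.65 to 4.18). Its interaction of -2.51 (adjusted p = 0.00552) was lost with a pseudocount of 0.1 (adjusted p = 0.271) and under no other alternative. Stmn2, a microtubule regulator of neurons, stood at 9.34, 7.51 and 7.49 TPM (male WT), 8.04, 8.08 and 6.66 (male KO), 25.2, 25.3 and 22.8 (female WT) and 7.37, 9.05 and 7.69 (female KO). Female WT was the high group, with an interaction of 1.41 (adjusted p = 0.000105). Flywch2, a zinc finger protein, stood at 9.39, 9.25 and 9.78 TPM (male WT), 8.66, 15.2 and 11.03 (male KO), 14.8, 9.77 and 10.5 (female WT) and 6.30, 3.23 and 3.07 (female KO), with an interaction of 1.56 (adjusted p = 0.0105). Hist1h2ah, a replication-dependent H2A histone, stood at 23.0, 18.97 and 17.7 TPM (male WT), 17.5, 19.2 and 26.3 (male KO), 20.9, 23.7 and 33.2 (female WT) and 12.7, 7.75 and 9.76 (female KO), with an interaction of 1.35 (adjusted p = 0.00986). Such transcripts mostly lack a poly(A) tail and share near-identical sequence, so its level here is uncertain.

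Markers of other cell kinds moved with some of these groups, and their part in the results was not tested. Krt19, a keratin of simple epithelia and mesothelium, stood at 67.2, 68.1 and 66.4 TPM (male WT), 7.30, 8.17 and 6.94 (male KO), 13.4, 16.0 and 14.96 (female WT) and 5.15, 5.82 and 8.35 (female KO), with an interaction of -1.91 (adjusted p = 4.19e-05). Its list, 14 epithelial or mesothelial genes of which 4 of 6 tested passed, summed to a mean of 112 TPM in male WT, 16.6 in male KO, 40.0 in female WT and 15.3 in female KO, the same ranking of WT groups as Isg15. Most of the sum in male WT is Krt19, and the passing members split into 1 above and 3 below. The 1 above is Wt1, which rose in the male pair. Those below are Krt19, Msln and Krt18, which were lower in KO than in WT in each pair. Msln averaged 28.7 TPM in WT and 1.30 TPM in KO in the male pair, against 12.6 and 5.63 TPM in the female pair. For Krt18 these means were 7.47 and 0.363 TPM (male pair) and 4.18 and 0.950 TPM (female pair). In this list Krt5 was listed at 0 in 11 libraries and Krt14 in 9. The skeletal muscle list, with Acta1 most abundant, summed to 10.9 and 7.90 TPM in the male and 16.8 and 10.1 TPM in the female pair, WT before KO, and 3 of 3 tested members passed, 2 above and 1 below. They are Des, Acta1 and Tnnt1, a troponin of slow muscle chosen after its values were seen, which rose against the sum in the male pair, at a mean of 0.230 TPM in WT and 2.27 TPM in KO, with an interaction of 1.99 (adjusted p = 0.0167). Its defining factors Myf5 and Myf6 were listed at 0 in all 12 libraries, Myog in 11, and Myod1 and Pax7 in 8 each. The highest values of Myog, Myod1 and Pax7 were 0.0887, 0.124 and 0.0749 TPM. Acta1 had an interaction of -0.97 (adjusted p = 0.00277), and with female means of 8.195 and 8.73 TPM it did not follow the female sum, whose fall is mostly Des.

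The chondrocyte list, led by Col2a1, with 1 of 4 tested members passing, summed to 13.1, 40.7, 16.9 and 38.6 TPM. These are the 2 male and then the 2 female groups, WT before KO, as in the sums that follow. The rise in each pair was mostly Col2a1, as given with the collagens, and Acan, which did not pass. Col9a2 and Comp averaged lower in KO in each pair. Col9a1 was listed at 0 in 11 libraries, Cnmd in 10 and Matn1 in 8. Neural and Schwann markers, with Map2 most abundant and Sox10 listed at 0 in 11 libraries, summed to 149, 100.4, 182 and 123 TPM, and 2 of 5 passed, both against the sum in 1 pair. Sox2 rose in female KO, as given with the opposite genes, and Tubb3, a neuronal tubulin chosen after its values were seen, rose in male KO, with an interaction of 0.53 (adjusted p = 0.0152). Map2 itself did not pass (adjusted p = 0.453). Endothelial markers, of which Kdr alone was tested and passed, summed to 3.21, 1.98, 6.00 and 2.60 TPM. Kdr made up 4.77 TPM of the female WT sum. Pecam1 reached at most 0.604 TPM and Cdh5 0.112 TPM, and Cldn5 was listed at 0 in 11 libraries. The interaction of Kdr was 0.93 (adjusted p = 0.00625). Adipocyte markers, with Cebpa most abundant and Cidec listed at 0 throughout, summed to 27.6, 26.3, 17.7 and 16.5 TPM, and 2 of 4 passed, 1 above and 1 below. They are Cebpa, with 0.88 (adjusted p = 0.00275), and Fabp4, a fatty acid carrier chosen after its values were seen, which fell in the male pair by 1.90, with an interaction of -1.74 (adjusted p = 0.00139). Blood and macrophage markers, led by Cd68, summed to 10.03, 12.6, 12.6 and 10.8 TPM with none of 2 passing and Adgre1 and Tyrobp listed at 0 in all 12 libraries. For Cd68 the adjusted p was 0.393. The fibroblast list, led by Col1a1, summed to 9871, 11608, 7049 and 9303 TPM, and 3 of 10 passed, all below. They are Prrx1 and, chosen after their values were seen, Col1a2, with an interaction of -0.50 (adjusted p = 5.89e-05), and S100a4, a calcium-binding protein, with -1.70 (adjusted p = 1.16e-06). S100a4 averaged 1129 and 960.2 TPM in male and 241 and 664 TPM in female WT and KO, its male fall passing in 11 of 20 alternatives. Col1a1 did not pass. It rose by 0.595 and 0.60, with an interaction of -0.01 (-0.15 to 0.14, adjusted p = 0.972).

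A last gene named because its group stood apart was Ccn5, a matricellular protein that restrains growth, at 184, 196 and 173 TPM (male WT), 291, 286 and 298 (male KO), 16.9, 15.3 and 15.1 (female WT) and 97.0, 89.95 and 103 (female KO). Female WT lay below the other 9 libraries and male KO above them. It rose 1.58-fold and 6.12-fold, with an interaction of -1.88 (-2.07 to -1.69, adjusted p = 1.98e-07). Over the autosomes and the X, the share of tested genes that passed ran from 9.95% on chromosome 14 to 17.7% on chromosome 6. The gene just inside the threshold was the pseudogene Zfp862-ps, with 0.735 (adjusted p = 0.0499, lost under 14 alternatives), and the gene just outside it was Gm21887, with 0.95 (adjusted p = 0.0503, passing under 3).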

How the data were processed

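The data are RNA-seq libraries of 4 groups of 3 mouse fibroblast cultures. The deposited table holds TPM values that the authors made with Salmon 1.10.1, per the labels. TPM sums to 1000000 per library and carries no read totals, so the depth reached and the precision it sets cannot be read from it. All 12 columns and 34866 genes were read, and 12465 genes were at 0 in every library. The 12504 genes averaging 1 TPM or more were tested.

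Values were log2(TPM+1), fitted with limma 3.58.1 in R 4.3.3 with 1 mean per group over all 12 libraries and moderated variances with a mean-variance trend. The interaction was the male KO minus WT difference minus the female one, and each pair's own difference came from the same fit. P-values were adjusted by Benjamini-Hochberg over all tested genes for each contrast, with a threshold of 0.05. The median residual standard deviation was 0.1215 log2 units. Folds are ratios of mean TPM. Tables were made with Python 3.11.15 and pandas 2.3.3, and the fit was tested on simulated data. Coordinates are from GENCODE M21 (GRCm38), in which 99.2% of identifiers were found, 93.4% in the same version, and promoter windows from RefSeq (GRCm38.p6).

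Genes were named by rule: the 5 largest interactions in each opposite class and 4 in each class of 1 pair alone, with a group mean of at least 5 TPM, no overlap of KO and WT libraries in the pair that moved, and a named symbol; up to 2 genes per list; 2 genes per group standing apart; genes of the label check and the nearest to the threshold; and the most abundant gene of each marker list. Results for some genes are not reported here. This left 76 genes, 67 of which passed. Another 43 were added after their values were seen. The members of the 23 gene lists and 8 marker lists were written from general knowledge and chosen with earlier results of these data known. Genes absent from the files, Xist among them, were not analysed here.

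Alternatives were a pseudocount of 0.1, no filter beyond a value above 0, a filter at 5 TPM, scaling by the median of ratios, leaving out the mean-variance trend, quantile normalization, the replicate number as a block, each pair fitted on its own 6 libraries, an adjusted p under 0.01, and leaving out each library in turn. Added after seeing the data was a bound on the other pair's 95% interval.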

Additional observations from a re-analysis of the deposited data

Results flagged for a closer look

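For each gene listed here, the male knockout change minus the female knockout change, tested as the interaction, passed, which marks a difference between the groups. The values are log2 differences between the pairs. Higher in male KO and lower in female KO were Pcdhga10 (3.41), Cthrc1 (2.84), Eng (2.72), Mmp2 (2.72), Sfrp2 (2.67), Cth (1.69), Mgst1 (2.06), Atf4 (0.95), Chac1 (1.20), Phgdh (0.46), Psph (0.79), Hoxa10 (1.07), Foxc1 (1.67), Wt1 (2.80), Col4a1 (0.52), Lox (0.85), Itga5 (0.62), Fgf7 (1.22) and Igfbp4 (1.74). Lower in male KO and higher in female KO were Sox2 (-4.08), Hand2 (-3.33), Aqp1 (-3.25), Gas7 (-3.25), Ifi27l2a (-3.07), Dlk1 (-1.92), Rps29 (-0.42), Rpl38 (-0.35), Gpx8 (-0.86), Hoxb9 (-2.50), Hoxd11 (-0.74), Msx1 (-2.42), Prrx1 (-0.90), Col7a1 (-1.71), Loxl2 (-0.50), Wnt5a (-1.17), Ccnd1 (-1.68) and S100a4 (-1.70). Higher in the male pair alone were Pax8 (5.04), Pcbd1 (4.67), Syce1 (3.68), Trib3 (1.51), Slc16a3 (2.25), Bnip3 (1.096), Ldhb (1.92), Gpx7 (1.34), Col15a1 (2.42), Mmp23 (1.64), Csrp2 (1.02), Cdh6 (3.31), L1cam (2.13), Egfr (1.28), Ccl20 (2.62), Cxcl1 (2.14), Robo2 (2.53), Zfp862-ps (0.735), Asns (0.86), Fgf21 (2.84), Hif1a (0.46), Tubb3 (0.53) and Tnnt1 (1.99). Lower in the male pair alone were Pcdh10 (-3.00), Sox21 (-2.72), Syt7 (-2.31), Pabpc4l (-2.31), Bmp2 (-1.955), Fgf5 (-1.66), Igfbp3 (-1.75), Oas1g (-2.245), Oas1a (-1.42), Mrpl23 (-0.96), Acta1 (-0.97), Hoxd13 (-0.94), Pitx1 (-1.98), Cdkn1c (-1.32) and Fabp4 (-1.74). Higher in the female pair alone were Hoxc10 (-2.70), Hoxc11 (-2.70), Cck (-2.51), Hoxc12 (-2.32), Mvd (-0.34), Sema5a (-0.99), Ccng1 (-0.48), Ccne1 (-0.37), Cd34 (-1.81), Spry1 (-0.91), Ifi27 (-0.83), Rpl39l (-2.31) and Col1a2 (-0.50). Lower in the female pair alone were Des (2.61), Flywch2 (1.56), Stmn2 (1.41), Hist1h2ah (1.35), Kdr (0.93) and Cebpa (0.88). Moving the same way in both pairs by different amounts were Herpud1 (0.47), Pdia6 (-0.31), Col2a1 (1.74), Aspn (-2.14), Tgfbi (1.88), Wnt10b (-2.62), Krt19 (-1.91), Ccn5 (-1.88), Foxd1 (2.175), Nr2f1 (-2.10), Isg15 (-0.80), Irf7 (-1.14), Bst2 (-1.14), H2-K1 (0.16) and Ccl7 (-1.27). Passing in neither pair on its own was Mrps14 (0.37).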

How the results depend on the processing

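Under settings other than the stricter threshold, 1353 to 1695 genes had a passing interaction, against 1629 reported. At an adjusted p under 0.01, by construction fewer remained: 904 for the interaction, 2074 in the male pair, 854 in the female pair, 89 of opposite direction, 529 in the male pair alone, 152 in the female pair alone and 89 in the same direction. Asking that the other pair's 95% interval lie within 0.322 log2 units of 0, a bound added after seeing the data, left 481 genes in the male pair alone and 139 in the female pair alone. Of the 67 named genes that passed, 58 passed under every alternative in which they were tested, 9 were lost under at least 1, and none reversed. The filter at 5 TPM left 15 of the 67 untested, and the fit of each pair alone has no interaction. Interactions that had not passed changed sign without 1 library: Ddx3y ranged from -0.1141 to 0.00675, Uty from -0.202 to 0.2723 and Col1a1 from -0.0629 to 0.0316, being above 0 in 7 leave-outs with a lowest such value of 0.000499. The cause was not tested. List medians kept their sign under both other scalings, except that of the actomyosin genes, 0.004 with quantile normalization against -0.004.

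The labels share replicate numbers, but nothing in them pairs the cultures. With the replicate block 1518 genes passed the interaction, 3158 the male and 1591 the female contrast, and 1433 of the 1518 were among those reported. Deviations of same-numbered libraries correlated at 0.00526 on average (-0.0571 to 0.0779), against -0.00262 for other numbers. The files give no read depth, so its limits on genes near 1 TPM cannot be given.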
